A study of Bos taurus with 138 samples.

Results

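The genes described here are the 10 core genes of the microRNA pathway in bovine oocytes and preimplantation embryos: DROSHA, DGCR8, DICER1, AGO1, AGO2, AGO3, AGO4, TNRC6A, TNRC6B and TNRC6C. They were taken by symbol from a table of 16706 genes, and all 10 have a row in it. The rule uses their role in the pathway and no measured value, although earlier results of these data were known when it was set.

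MicroRNAs are short RNAs that guide repression of messenger RNAs. A primary transcript is cut in the nucleus by the Microprocessor, formed by the nuclease DROSHA and its RNA-binding partner DGCR8, and the released hairpin is exported and cut again in the cytoplasm by DICER1. An Argonaute protein (AGO1 to AGO4) keeps a strand of the duplex as its guide, and a TNRC6 protein (TNRC6A to TNRC6C, the GW182 family) bound to the Argonaute recruits the deadenylases that shorten and silence the target. In oocytes of the mouse, DICER1 also makes endogenous small interfering RNAs, and microRNA-guided repression is known to be weak.

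Messenger RNA was profiled at 6 stages: oocytes with a germinal vesicle (GV), oocytes matured to metaphase II (MII), and 2-cell, 8-cell, morula and blastocyst embryos. GV oocytes came from slaughterhouse ovaries, and the later stages were matured, fertilized with semen of a Holstein bull and cultured in vitro. Oocytes and embryos were treated with cycloheximide before collection, to hold ribosomes on their transcripts, and freed of the zona pellucida. At each stage 2 pools of cells (gradients A and B) were lysed and separated on sucrose gradients into 10 fractions, F1 to F10, and 3 pools of whole cells from the same batches (A, B and C) gave the transcriptome. Here F8, F9 and F10 of a gradient were summed into a polysome pool, that is, messenger RNA carrying many ribosomes, and F3, F4 and F5 into a monosome pool. Levels are given as CPM, the count relative to the library size after scaling by TMM factors, so every level and every difference is relative to the other RNA of the same libraries. A lower level in a bulk sample cannot separate fewer copies per cell from fewer cells that hold the transcript.

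The 18 transcriptomes held 3269385 to 11812541 counts, the 12 polysome pools 22543733 to 39380640 and the 12 monosome pools 16042811 to 42183070. Oocyte markers (7 genes, among them GDF9 and the zona pellucida genes) summed to 17500 to 23800 CPM of the library total in GV transcriptomes and to at most 108 in blastocysts, where 6 trophectoderm markers summed to 5620 to 6120. The 8-cell transcriptomes also held 5 fibroblast markers (COL1A1, COL1A2, COL3A1, DCN and LUM) at a sum of 1430 to 9720, against at most 57.7 at the other 5 stages, and all 5 were detected there. Most of that sum was LUM, at 1310 to 9060. The sum of 7 cumulus and granulosa markers was highest in MII transcriptomes, at 234 to 323, mostly from HAS2 (138 to 161) and TNFAIP6 (68.2 to 129). Not all of the 7 peaked there, as FSHR (2.2 to 9) and PTX3 (14.3 to 17.7) were highest at the 8-cell stage. Polysome pools of the late stages often rested on 1 fraction: of the members' pools with any count, 9 of 17 took over 90% of it from a single fraction at the 8-cell stage, 6 of 19 in morulae and 6 of 20 in blastocysts, against 2 of 20 at GV, 1 of 18 in MII oocytes and 1 of 19 at the 2-cell stage.

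**Figure D1:**
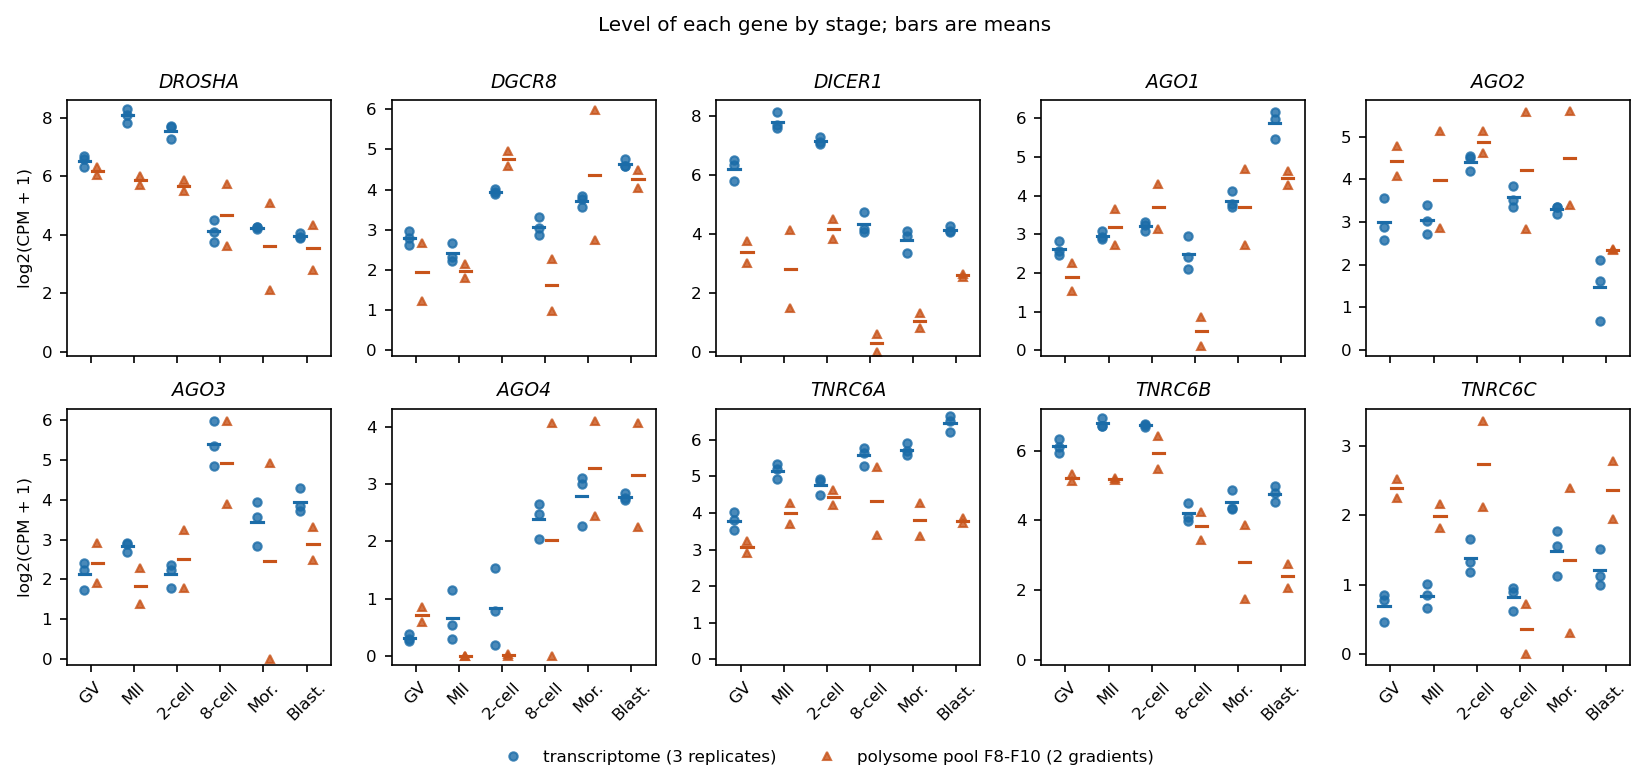
Level of each of the 10 genes as log2(CPM + 1) by stage, with circles for the 3 transcriptomes, triangles for the 2 polysome pools and bars for their means; the panels have their own vertical scales. DROSHA, DICER1 and TNRC6B were high in oocytes and 2-cell transcriptomes and low from the 8-cell stage on, while the triangles of DICER1 lie below its circles at every stage.

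Between consecutive stages, the genes changed mostly from the 2-cell to the 8-cell embryo, the time of the main embryonic genome activation in cattle. In the transcriptome, 1 of 10 rose at that step (AGO3) and 3 fell (DROSHA, DICER1 and TNRC6B), where 27.7% of the 14612 genes tested rose and 24.6% fell (edgeR quasi-likelihood test, Benjamini-Hochberg adjusted p below 0.05). The median log2 fold change of the 10 genes was -0.92, against 0.03 over all genes. In the polysome pools 1 of 10 was called higher (AGO4, whose 8-cell pools disagree) and 5 fell (DICER1, AGO1, TNRC6C, DGCR8 and TNRC6B), beside 21.6% and 25.7% of all genes, with a median of -1.43 against -0.26. The 3 of 10 genes that fell in the transcriptome stood near the share of all genes, those that rose in either kind of library fell short of it, and the 5 of 10 that fell in polysomes lay above it. These shares were not tested.

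The other transitions held few changes. During maturation from GV to MII, 2 of 10 genes rose in the transcriptome (DROSHA and TNRC6A) and 0 fell, beside 7.72% and 10.9% of all genes. In the polysome pools 0 rose and 0 fell at that step, beside 3.08% and 2.35%; unadjusted p was below 0.05 for 3 members, and the likelihood ratio test of edgeR and DESeq2 each called 1. From MII to 2-cell, 0 genes changed in the transcriptome, where 6.5% of all genes rose and 6.62% fell, with unadjusted p below 0.05 for 2 members and 1 call by either other test. In the polysome pools 1 rose (DGCR8) and 0 fell, beside 3.44% and 5.21%.

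From 8-cell to morula, 0 genes changed in the transcriptome (7.39% of all genes rose and 8.04% fell), with unadjusted p below 0.05 for 2 members and 1 call by either other test. In the polysome pools 2 rose (AGO1 and DGCR8) and 0 fell, beside 19% and 18%. From morula to blastocyst, 1 rose in the transcriptome (AGO1) and 1 fell (AGO2), beside 10.8% and 12.5%, and in the polysome pools 0 rose and 1 fell (AGO2), beside 5.87% and 8.38%.

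**Figure D2:**
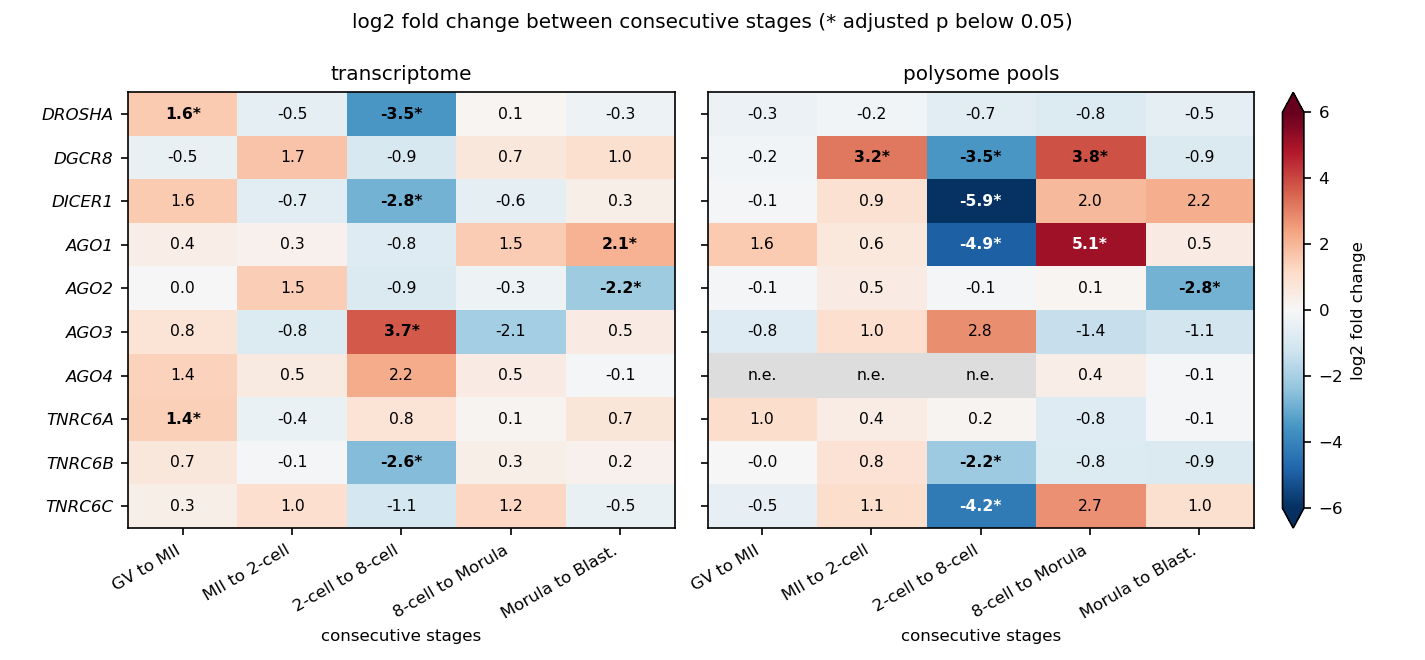
Fitted log2 fold change of each gene between consecutive stages in the transcriptome (left) and in the polysome pools (right), with the colour from blue (lower) to red (higher) and an asterisk at an adjusted p below 0.05; n.e. marks values not estimated because a group held at most 1 count. The column from 2-cell to 8-cell holds 4 of the 8 calls in the transcriptome and, AGO4 left aside, 5 of the 9 in the polysome pools.

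DROSHA, the nuclease of the Microprocessor, was a maternal transcript. Its level in the 3 transcriptomes was 96.3, 102 and 78.1 CPM at the GV stage, 228, 276 and 314 at MII and 208, 203 and 154 in 2-cell embryos. It was 15.9, 12.6 and 21.5 CPM at the 8-cell stage, 17.3 to 18.4 in morulae, with 13.9 to 15.9 in blastocysts. Every library of the first 3 stages lay above every library of the last 3, and the order of the stage means was MII, 2-cell, GV, morula, 8-cell and blastocyst, of which the ranges of morula and 8-cell and of 8-cell and blastocyst overlapped. From 2-cell to 8-cell DROSHA fell 11.3-fold (log2 fold change -3.50 ± 0.59 SE, adjusted p = 2.88e-05). Its rise from GV to MII was 2.96-fold (1.56 ± 0.54, adjusted p = 0.0447). That call was lost when any of the 6 libraries was left out (adjusted p 0.0611 to 0.145) and with library totals in place of TMM factors (1.15, adjusted p = 0.146).

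In the polysome pools DROSHA did not show the same step. Its level in gradients A and B was 79.4 and 65.7 CPM at the GV stage, 63.3 and 51.4 in MII oocytes, 44.0 and 57.1 at the 2-cell stage and 52.5 and 11.4 at the 8-cell stage. The later pools disagreed, with 33.3 and 3.31 CPM in morulae, with 5.92 and 19.2 in blastocysts. From 2-cell to 8-cell the log2 fold change in polysomes was -0.66 ± 0.65 (adjusted p = 0.422), and it differed from that in the transcriptome by 2.83 ± 0.86 (adjusted p = 0.0319). All of the DROSHA count of the 8-cell pool A came from F10, at 187 CPM. Without that pool the polysome change was a called fall (-2.15, adjusted p = 0.0289), and the difference from the transcriptome was 1.36 (adjusted p = 0.312), and it also missed the threshold without either 2-cell pool (adjusted p 0.0824 to 0.123) or without 2-cell transcriptome A or B or 8-cell transcriptome A or B (0.0579 to 0.0656). DROSHA was 4.75-fold lower in polysomes than in the transcriptome of MII oocytes (-2.25 ± 0.65, adjusted p = 0.00488), and 3.73-fold lower at the 2-cell stage (-1.90 ± 0.64, adjusted p = 0.0156). The latter call was lost without either 2-cell pool (adjusted p 0.0585 to 0.109).

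DGCR8, which binds the primary transcript for DROSHA, moved in another way. Its level in the transcriptome was 6.76, 5.13 and 5.98 CPM at the GV stage, 4.01, 5.37 and 3.69 in MII oocytes and 13.7, 14.5 and 15.1 at the 2-cell stage. It was 6.26 to 8.96 CPM at the 8-cell stage, 10.8 to 13.3 in morulae, with 22.9 to 26.3 in blastocysts, so the highest mean was in blastocysts and the lowest in MII oocytes. None of its 5 changes in the transcriptome passed the test (adjusted p 0.0724 to 0.689), the smallest being that from MII to 2-cell (1.73 ± 0.63).

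Its polysome pools held 2.49 and 3.43 CPM in MII oocytes, 23.0 and 30.2 at the 2-cell stage, 3.86 and 0.949 at the 8-cell stage and 62.1 and 5.69 in morulae. DGCR8 rose 8.96-fold in polysomes from MII to 2-cell (3.16 ± 0.80, adjusted p = 0.0143), fell 11.1-fold to the 8-cell stage (-3.47 ± 0.81, adjusted p = 0.00135) and rose 14.1-fold to the morula (3.82 ± 0.83, adjusted p = 0.00108). The last step differed from that in the transcriptome by 3.12 ± 0.98 (adjusted p = 0.0376). The morula values rested on gradient A, without which the rise was 1.26 (adjusted p = 0.183) and the difference from the transcriptome 0.56 (adjusted p = 0.804). The difference was also lost without 8-cell pool B, 8-cell transcriptome B or C or any morula transcriptome (adjusted p 0.0537 to 0.0849). The rise from MII to 2-cell was lost without either MII pool or without 2-cell pool B (adjusted p 0.0643 to 0.0924).

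DICER1, which cuts the exported hairpin into the mature duplex, was lower in polysomes than in the transcriptome at all 6 stages. In the transcriptome its level was 78.7, 90 and 54.2 CPM at the GV stage, 190, 204 and 278 in MII oocytes and 136, 153 and 130 at the 2-cell stage. It was 25.4, 15.8 and 17.0 CPM at the 8-cell stage, 14.3, 16.0 and 9.05 in morulae, then 15.9, 18.2 and 15.8 in blastocysts. The ranges of the first 3 stages did not overlap with each other or with the later stages, while those of the 8-cell, blastocyst and morula stages overlapped. DICER1 fell 7.19-fold from 2-cell to 8-cell (-2.85 ± 0.62, adjusted p = 0.000501). Its change from GV to MII (1.59 ± 0.59) missed the threshold with an adjusted p of 0.0604, and was called by DESeq2 (adjusted p = 0.00707).

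The polysome pools of DICER1 held 6.96 and 12.4 CPM at the GV stage, 16.6 and 1.79 in MII oocytes, 13.1 and 21.4 at the 2-cell stage, 0 and 0.515 at the 8-cell stage, 0.723 and 1.47 in morulae, with 4.79 and 5.19 in blastocysts. At each of the 6 stages both pools lay below all 3 transcriptomes. The polysome level was 7.68-fold lower in GV oocytes (-2.94 ± 0.73, adjusted p = 0.00228), 24.3-fold lower in MII oocytes (-4.60 ± 0.80, adjusted p = 2.91e-05), 8.10-fold lower at the 2-cell stage (-3.02 ± 0.73, adjusted p = 0.00136) and 67.9-fold lower at the 8-cell stage (-6.09 ± 0.89, adjusted p = 4.25e-06). In morulae it was 11.8-fold lower (-3.56 ± 0.77, adjusted p = 0.000519) and in blastocysts 3.33-fold lower (-1.74 ± 0.70, adjusted p = 0.0496). The blastocyst call was lost without any of its 5 libraries (adjusted p 0.0724 to 0.168), and those of the other 5 stages held when any library was left out.

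From 2-cell to 8-cell DICER1 fell 60.3-fold in polysomes (-5.91 ± 0.90, adjusted p = 1.40e-05), to 0 counts in pool A and 19 in pool B. That fall exceeded the one in the transcriptome by 3.07 on the log2 scale (-3.07 ± 0.99, adjusted p = 0.0425). The call of the difference was lost without 8-cell pool A (-2.19, adjusted p = 0.131), without either 2-cell pool (0.0554 to 0.137), without any 2-cell transcriptome (0.0689 to 0.0775) and without 8-cell transcriptome A or C (0.0526 to 0.0883). The 5 fibroblast markers summed to 252 CPM and 343 CPM in the 8-cell polysome pools, against at most 51.5 in the pools of other stages, and their part in the 8-cell values was not tested.

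The low DICER1 level was not particular to the polysome pools. On a scale of CPM of the library total, 116 of its 120 fraction libraries lay below all 3 transcriptomes of their stage, free RNA and monosome fractions included. In GV, MII and 2-cell samples all 20 fractions of a stage did so, with a median over fractions of 4.6, 3.66 and 13 CPM against transcriptomes of at least 59.0, 158 and 151. Monosome pools of DICER1 held 2.11 and 3.58 CPM at the GV stage and 12.4 and 10.4 at the 2-cell stage. Polysome pools lay below both monosome pools at the 8-cell stage (-2.783 ± 1.62) and in morulae (-2.705 ± 1.60). At the other stages the fitted difference was above 0 (0.211 to 1.643). No difference passed the threshold at any stage (adjusted p 0.268 to 1), which does not show that the pools were equal. Of 12151 genes with a mean transcriptome level of at least 1 CPM, 11.1% had as many fractions below their transcriptomes as DICER1, and the median gene had 61 of 120. TNRC6A had 111 such fractions, DROSHA 102, TNRC6B 99, AGO4 89, AGO1 and AGO3 71 each, DGCR8 70, TNRC6C 43 and AGO2 33. The differences between pools and transcriptome therefore include RNA that was low in the whole gradient, and what part of it was lost before or during fractionation was not tested.

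**Figure D3:**
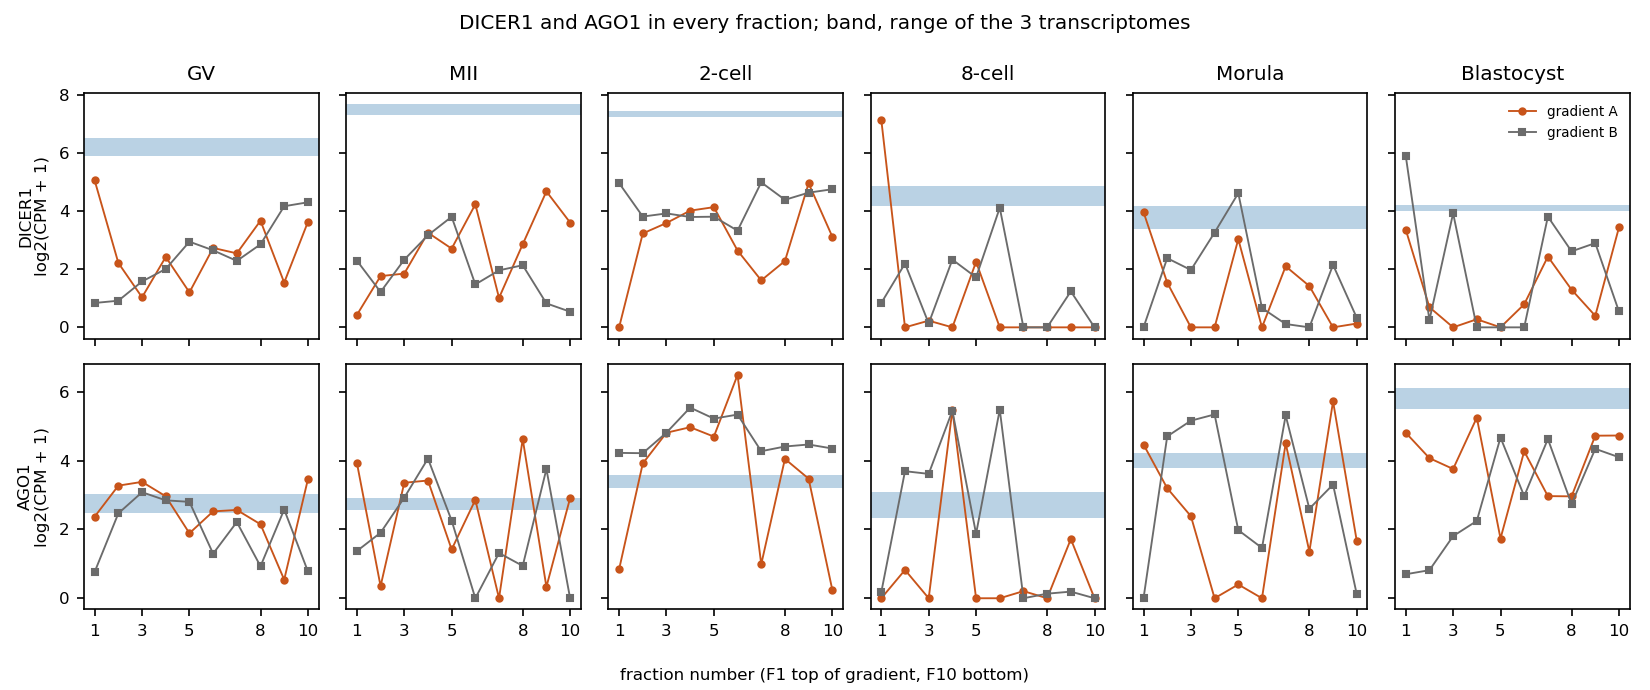
Level of DICER1 (top) and AGO1 (bottom) as log2(CPM + 1), relative to the library total, in fractions F1 (lightest) to F10 (heaviest) of gradients A and B at each stage, with a band for the range of the 3 transcriptomes. All fractions of DICER1 lie below the band in GV, MII and 2-cell samples, and AGO1 at the 8-cell stage peaks at 43.4 and 42.8 CPM in F4 of gradients A and B and at 43.8 in F6 of gradient B, with at most 2.29 in F7 to F10.

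The Argonaute genes each had their own course. AGO1, AGO3 and AGO4 follow one another on chromosome 3 in the order AGO3, AGO1, AGO4 in the RefSeq gene table of assembly ARS-UCD2.0, which is not the build of the counts, and AGO2, the member with the best known slicing activity, lies apart on chromosome 14. How reads shared among these related genes were assigned cannot be seen in the counts.

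AGO1 had its lowest mean level at the 8-cell stage and its highest in blastocysts in both kinds of library. In the transcriptome it was 6.77, 4.30 and 3.31 CPM at the 8-cell stage, 12.8, 16.3 and 12.2 in morulae, then 42.9, 62.6 and 71.0 in blastocysts, with 4.51 to 8.95 CPM over the 3 earlier stages, whose range the 8-cell libraries overlapped. All blastocysts lay above all morulae, and the rise between them was 4.28-fold (2.10 ± 0.61, adjusted p = 0.0131). It was no longer called without morula transcriptome A (2.05, adjusted p = 0.0501) or C (2.03, adjusted p = 0.0577).

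The polysome pools of AGO1 held 3.81 and 1.89 CPM at the GV stage, 11.6 and 5.58 in MII oocytes, 7.78 and 18.7 at the 2-cell stage, 0.820 and 0.0813 at the 8-cell stage, 24.6 and 5.61 in morulae, with 23.9 and 18.5 in blastocysts. Both 8-cell pools (20 and 3 counts) lay below the pools of every other stage. AGO1 fell 29.9-fold from 2-cell to 8-cell (-4.90 ± 0.85, adjusted p = 6.85e-05) and rose 34.1-fold to the morula (5.09 ± 0.86, adjusted p = 9.99e-05), and both calls held when any library was left out. The fall exceeded that in the transcriptome by 4.12 on the log2 scale (-4.12 ± 0.98, adjusted p = 0.00816) and the rise by 3.57 ± 0.98 (adjusted p = 0.0175). The first of these held without any library, and the second was 2.16 (adjusted p = 0.151) without morula pool A, of whose count 93% came from F9.

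At the 8-cell stage AGO1 was 10.8-fold lower in polysomes than in the transcriptome (-3.44 ± 0.78, adjusted p = 0.00067). It was also 38.8-fold lower in polysomes than in monosomes (-5.28 ± 1.30, adjusted p = 0.0204), with 12.4 and 19.1 CPM in the monosome pools. F4 held 43.4 and 42.8 CPM in the 2 gradients. The difference from monosomes was no longer called without 8-cell polysome pool B (-4.28, adjusted p = 0.065) or monosome pool B (-4.93, adjusted p = 0.0539). At the other 5 stages AGO1 differed from the transcriptome by -1.47 to 0.68, and no difference passed the test (adjusted p 0.0868 to 0.892).

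AGO2, the Argonaute that can cut a fully matched target, was highest in 2-cell transcriptomes, at 21.6, 17.4 and 22.3 CPM. It was 5.59 to 9.63 CPM in MII oocytes, 9.23 to 13.5 at the 8-cell stage, 9.24, 8.14 and 9.16 in morulae, then 2.06, 3.32 and 0.60 in blastocysts. All blastocysts lay below all libraries of the other stages. From morula to blastocyst AGO2 fell 4.44-fold in the transcriptome (-2.15 ± 0.74, adjusted p = 0.0361), a call lost without any morula transcriptome or without blastocyst transcriptome A or C (adjusted p 0.0605 to 0.162). In polysomes it fell 7.05-fold (-2.82 ± 0.87, adjusted p = 0.0329), from 9.59 and 48.1 CPM to 4.05 and 4.13. That call rested on morula pool B, without which the change was -1.22 (adjusted p = 0.374), and it was also lost without either blastocyst pool (0.131 to 0.154). At every stage the fitted AGO2 difference between polysomes and transcriptome was above 0 (0.50 to 1.71), and none passed the test (adjusted p 0.0554 to 0.597). This was not particular to polysomes, as 68 of its 120 fraction libraries lay above all transcriptomes of their stage and 33 below. Against monosomes the fitted difference was 1.08 in morulae and below 0 at the other stages (-1.46 to -0.61), with no call.

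AGO3 rose at genome activation. Its transcriptome level was 2.43, 4.16 and 3.69 CPM at the 2-cell stage and 39.9, 62.4 and 27.8 at the 8-cell stage, and then 6.16, 10.9 and 14.3 in morulae, with 12.1 to 18.7 in blastocysts. All 8-cell libraries lay above all libraries of the other stages. The rise was 12.6-fold (3.66 ± 1.06, adjusted p = 0.00588) and was called without any of the 6 libraries. The fibroblast markers, mostly LUM, summed to 8700 CPM (TMM scale) in 8-cell transcriptome A, 1760 in B and 1180 in C, while AGO3 was highest in B. Their part in the AGO3 level was not tested. The polysome pools held 2.45 and 8.49 CPM at the 2-cell stage and 61.7 and 13.8 at the 8-cell stage (2.79 ± 1.24, adjusted p = 0.0671). That change was called by DESeq2 (adjusted p = 0.0363) and without 8-cell pool B (3.50, adjusted p = 0.0277). F10 gave 99.4% of the count of 8-cell pool A. In morulae AGO3 had 0 counts in pool A and 1014 in pool B, so its fitted differences there depend on which gradient is used.

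AGO4 had few counts in oocytes. The 3 GV transcriptomes held 3, 3 and 2 counts and those of MII oocytes 4, 12 and 2, while the later levels were 3.14 to 5.31 CPM at the 8-cell stage, 3.83 to 7.60 in morulae, with 5.59 to 6.22 in blastocysts. Its polysome pools held 20 and 30 counts at GV, 0 and 0 in MII oocytes and 0 and 1 at the 2-cell stage. Taking 3 counts over both pools as the limit, AGO4 in MII polysomes was at least 12.4-fold lower than in the transcriptome, which was called (adjusted p = 0.011, and 0.0648 to 0.0659 without either MII pool). At the 2-cell stage 1 count in polysomes stood against 36 in the transcriptomes, a ratio of 63.3 with an exact 95% counting interval of 10.7 to 2570 (adjusted p = 0.0156 in the fit, 0.118 without 2-cell pool A and 0.0584 without 2-cell transcriptome A). The 8-cell pools held 383 counts in A, all from F10, and 0 in B. The call of a rise from the 2-cell stage (adjusted p = 0.00159) therefore rested on pool A, without which the fitted change was -1.64 (adjusted p = 0.467), and the pools of the stages overlapped. In morulae and blastocysts AGO4 was detected in both pools, at 4.43 and 16.2 CPM and at 3.74 and 15.7 CPM, and each morula pool took its whole count from a single fraction.

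Of the TNRC6 genes, which connect Argonautes to the deadenylases, TNRC6B fell in the transcriptome from 2-cell to 8-cell. The change of TNRC6A (0.84 ± 0.39, adjusted p = 0.0736) was not called there. It was called as a rise when only the libraries compared were fitted (0.97, adjusted p = 0.00553). The 2 genes were not tested against each other. TNRC6A was lowest at GV, at 10.6, 15.3 and 13 CPM, and was 39.7, 36.1 and 29.4 in MII oocytes, 38.1 to 54.4 at the 8-cell stage and 100, 73.6 and 90.2 in blastocysts. Its rise from GV to MII was 2.71-fold (1.44 ± 0.40, adjusted p = 0.0114), and was lost without GV transcriptome A (1.31, adjusted p = 0.0639) and with library totals in place of TMM factors (1.05, adjusted p = 0.081). No later step passed the test (adjusted p 0.0736 to 0.850), although the blastocysts lay above all other libraries.

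TNRC6B was 80.7, 68.6 and 60.0 CPM at the GV stage, 105, 104 and 123 in MII oocytes and 110, 107 and 102 at the 2-cell stage. It was 16.3, 14.9 and 21.8 CPM at the 8-cell stage and 19.3 to 30.8 in morulae and blastocysts, all below the earlier stages. From 2-cell to 8-cell it fell 6.01-fold in the transcriptome (-2.59 ± 0.44, adjusted p = 3.73e-05) and 4.58-fold in polysomes (-2.20 ± 0.53, adjusted p = 0.00183), from 84.4 and 43.5 CPM to 9.76 and 18.1. The 2 changes differed by 0.39 ± 0.66 (adjusted p = 0.793).

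TNRC6A and TNRC6B were both lower in polysomes than in the transcriptome late in development. In blastocysts the pools of TNRC6A held 13.5 and 12.3 CPM and those of TNRC6B 3.13 and 5.66, below all transcriptomes. TNRC6A was 6.82-fold lower in polysomes than in the transcriptome (-2.77 ± 0.48, adjusted p = 7.51e-05) and TNRC6B 6-fold lower (-2.59 ± 0.52, adjusted p = 0.000385). This was not particular to polysomes. Of the 20 blastocyst fraction libraries, 20 for TNRC6A and 19 for TNRC6B lay below all transcriptomes. Against monosomes of blastocysts the fitted difference was -0.011 ± 0.887 for TNRC6A and -1.811 ± 0.764 for TNRC6B, with no call. In morulae TNRC6A was 3.78-fold lower (-1.92 ± 0.46, adjusted p = 0.00145) and TNRC6B 2.79-fold (-1.48 ± 0.49, adjusted p = 0.0151), the latter only with morula pool A in the fit (-0.74 without it, adjusted p = 0.18). Both were also lower in MII polysomes, TNRC6A 2.29-fold (-1.20 ± 0.45, adjusted p = 0.0261) and TNRC6B 3.11-fold (-1.64 ± 0.49, adjusted p = 0.00683). The MII call of TNRC6A was lost without MII polysome pool B (-0.96, adjusted p = 0.172) or MII transcriptome A (-1.13, adjusted p = 0.0559).

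TNRC6C was at 0.38 to 2.41 CPM in all 18 transcriptomes, that is, 4 to 27 counts per library, and none of its changes there passed the test. In GV oocytes its polysome pools held 4.77 and 3.78 CPM against transcriptomes of 0.38, 0.718 and 0.811, which was 6.70-fold higher (2.75 ± 1.04, adjusted p = 0.0387). The call was lost without any of the 5 libraries (adjusted p 0.0738 to 0.121). In polysomes TNRC6C fell 18.6-fold from 2-cell to 8-cell (-4.22 ± 1.26, adjusted p = 0.00867), from 9.31 and 3.35 CPM to 0 and 0.651, a call lost without 2-cell pool A (-3.30, adjusted p = 0.0572).

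All calls in the polysome pools between stages depended on the spread estimated from all 30 libraries. When only the 4 pools of a step were fitted, none of the 10 was called, with adjusted p of 0.0517 to 0.567 for DGCR8, AGO1, TNRC6C, DICER1, TNRC6B and AGO2, and AGO4 was not tested at its step for its low counts. The fitted changes of the other 9 kept their direction and about their size, with -4.68 for AGO1 and -5.84 for DICER1 from 2-cell to 8-cell and 5.18 for AGO1 from 8-cell to morula. With 2 gradients and 3 transcriptomes per stage, and no statement that the letters mark separate batches of ovaries, p-values measure the spread between these samples, which may be technical.

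**Figure D4:**
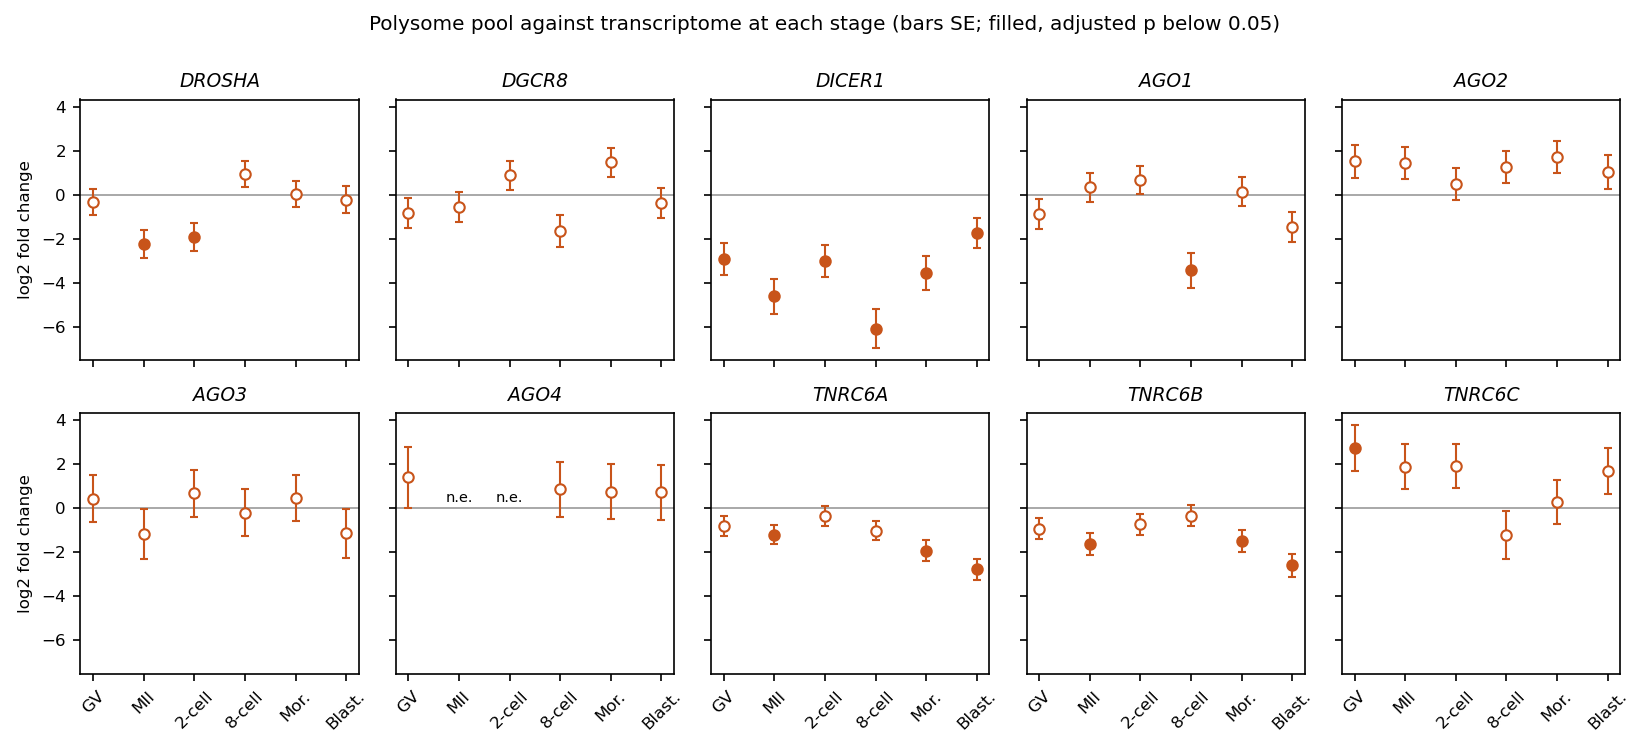
Fitted log2 fold change of the polysome pool against the transcriptome for each gene by stage, with bars of 1 SE, filled circles at an adjusted p below 0.05 and n.e. where polysomes held at most 1 count. DICER1 lies between -6.09 and -1.74 with every circle filled, AGO2 lies above 0 with none filled, and the lowest AGO1 value is at the 8-cell stage.

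Counted by stage, polysomes and transcriptome differed as follows. In GV oocytes 1 of 10 genes was higher in polysomes (TNRC6C) and 1 lower (DICER1), beside 22.2% and 17.7% of all genes. In MII oocytes 0 were higher and 5 lower (DICER1, AGO4, DROSHA, TNRC6B and TNRC6A), beside 30.8% and 26.7%, with a median log2 fold change of -1.18 for the 10 genes and 0.00 for all genes. In 2-cell embryos 0 were higher and 3 lower (DICER1, AGO4 and DROSHA), beside 29.1% and 21.9%. At the 8-cell stage 0 were higher and 2 lower (DICER1 and AGO1), beside 28% and 31%, with medians of -0.68 and -0.26. In morulae 0 were higher and 3 lower (DICER1, TNRC6A and TNRC6B), beside 26.5% and 25.2%, and in blastocysts the same counts and genes stood beside 20% and 20.1%. Over the 6 stages the calls were 1 higher and 17 lower. The likelihood ratio test added 6 calls, of which TNRC6C at the 2-cell stage and AGO2 and DGCR8 in morulae were higher in polysomes, and TNRC6A and DGCR8 at the 8-cell stage and AGO1 in blastocysts were lower.

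The difference between polysomes and transcriptome itself changed between stages for few of the genes. From GV to MII 1 of 10 passed the test (AGO4, whose MII pools held 0 counts), beside 10.6% of all genes. From 2-cell to 8-cell 3 passed (AGO1, DICER1 and DROSHA), beside 12.2%, and from 8-cell to morula 2 (AGO1 and DGCR8), beside 12.5%. From MII to 2-cell and from morula to blastocyst 0 passed, beside 1.81% and 12.3%, and 0 had an unadjusted p below 0.05 or were called by the likelihood ratio test or DESeq2.

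Between polysome and monosome pools of the same gradients, 1 of 10 genes was called at the 8-cell stage (AGO1), beside 9.35% of 14873 genes. The model held no term for the gradient, so the pairing of these pools was not used. At the other stages 0 were called by the quasi-likelihood test, beside 0.498% at GV, 0.437% in MII oocytes, 0% at the 2-cell stage, 1.59% in morulae and 1.43% in blastocysts. Unadjusted p was below 0.05 for 0 of the 10 in GV and 2-cell samples, 2 in MII oocytes (TNRC6A and AGO4), 1 in morulae (DROSHA) and 1 in blastocysts (TNRC6B). DESeq2 called AGO4 in MII oocytes and TNRC6B in blastocysts, besides DGCR8 at the 8-cell stage, and the likelihood ratio test none of the 10 at these 5 stages. Over all genes at the 2-cell stage, 935 had an unadjusted p below 0.05, the likelihood ratio test called 22 and DESeq2 204.

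The other genes of the pathway were read from 4 lists, which were chosen with earlier results of these data known. Of 13 processing and export partners, 6 rose and 1 fell in the transcriptome from 2-cell to 8-cell, where 27.7% of all genes rose and 24.6% fell. The largest changes were those of the RNA helicases and Microprocessor cofactors DDX17 (24.9-fold higher, 4.64 ± 0.49, adjusted p = 4.08e-08) and DDX5 (10.3-fold, 3.37 ± 0.27, adjusted p = 6.77e-10). Of 6 chaperones of Argonaute loading, 2 rose and 1 fell, with PTGES3 10.5-fold higher (3.39 ± 0.29) and FKBP4 5.81-fold lower (-2.54 ± 0.43). Of 13 genes of tailing and turnover, 3 rose and 2 fell, with the deadenylase PARN 7.29-fold lower (-2.87 ± 0.44) and ZSWIM8, which directs Argonaute decay, 6.36-fold lower (-2.67 ± 0.47). Of 26 silencing effectors, 6 rose and 9 fell, with the poly(A)-binding protein PABPC1 17.1-fold higher (4.09 ± 0.31) and EIF4ENIF1, which binds the cap-binding protein eIF4E, 4.93-fold lower (-2.30 ± 0.46). Their medians were 0.08, -0.02, 0.25 and -0.32, against 0.03 over all genes.

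TARBP2, the double-stranded RNA-binding partner of DICER1, was higher in polysomes where DICER1 was lower. Its mean level in polysomes was 992 ± 14.6 CPM at the GV stage, 637 ± 91.9 in MII oocytes, 711 ± 86.4 at the 2-cell stage, 535 ± 13.4 at the 8-cell stage, 555 ± 76.4 in morulae and 286 ± 44.2 in blastocysts (SD, n = 2). In the transcriptome it was 200 ± 25.5, 14.0 ± 4.17, 50.2 ± 6.43, 23.0 ± 2.78, 37.6 ± 11.1 and 39.0 ± 8.25 CPM (SD, n = 3). Both pools were thus above all transcriptomes, and TARBP2 was higher in polysomes at all 6 stages, from 4.96-fold in GV oocytes (2.31 ± 0.27, adjusted p = 2.71e-07) to 45.4-fold in MII oocytes (5.50 ± 0.30, adjusted p = 1.07e-12). In the transcriptome it fell 14.2-fold from GV to MII (-3.83 ± 0.27, adjusted p = 1.10e-09). Its free RNA and monosome levels are not given here. Against monosome pools, 1 of the 13 processing and export partners was called higher at the 8-cell stage, and it is not named here. At every other stage 0 of the 13, TARBP2 among them, were called. Over all genes at most 1.59% were called at those stages, and 9.35% at the 8-cell stage. Outside the 8-cell stage an excess of TARBP2 over the whole gradient was therefore not told from one in polysomes. The lack of a call does not show that its polysome and monosome levels were equal.

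PRKRA, the other such partner of DICER1, was lower in polysomes of MII oocytes (12.5-fold, -3.65 ± 1.22, adjusted p = 0.0133), 2-cell embryos (13.1-fold, -3.72 ± 1.22, adjusted p = 0.0139) and morulae (15.8-fold, -3.98 ± 1.27, adjusted p = 0.0117). XPO5, the exporter of the hairpin, had no call between consecutive stages or between polysomes and transcriptome. LIN28A, which blocks maturation of let-7 microRNAs, was higher in blastocyst polysomes (6.68-fold, 2.74 ± 0.96, adjusted p = 0.0259), and so was LIN28B (7.71-fold, 2.95 ± 1.16, adjusted p = 0.0462). Both calls came from low levels. Blastocyst transcriptomes held LIN28A at 0.588 to 1.66 CPM and LIN28B at 0.2 to 1.24, against pools of 4.31 and 13.2 and of 3.87 and 6.68. LIN28B had 0 counts in both 8-cell pools, at least 10.1-fold below the transcriptome.

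Against the transcriptome of the 8-cell stage, 3 of the 13 processing and export partners were higher in polysomes and 6 lower. Of the 6 chaperones 1 was higher and 4 lower. Of the 13 tailing and turnover genes 4 and 8 were so, and of the 26 effectors 5 and 12, beside 28% and 31% of all genes. TARBP2 (23.3-fold, 4.54 ± 0.29) and KHSRP (8.32-fold, 3.06 ± 0.63), a binder of hairpin loops, were the most raised partners. HSP90AB1 was 9.85-fold lower (-3.30 ± 0.41) and HSP90AA1 7.57-fold (-2.92 ± 0.33). The uridylyl transferase TUT4 was 29.1-fold lower (-4.87 ± 1.17), the helicase DDX6 24.2-fold (-4.60 ± 0.75) and the deadenylase CNOT6 15-fold (-3.91 ± 0.69). These folds rest on pools that were low or disagreed. The 8-cell pools held 0 and 1.17 CPM of TUT4, 0.246 and 8.49 of DDX6 and 2.01 and 6.64 of CNOT6. The lowest 8-cell transcriptomes were at 9.22, 70.7 and 45.8 CPM. The list medians were -1.14, -1.62, -1.37 and -0.51, against -0.26 over all genes. All these differences are from the transcriptome. Against monosome pools of the 8-cell stage, 1 partner, 2 chaperones, 1 tailing and turnover gene and 0 effectors were higher in polysomes. Lower were 0 partners, 0 chaperones, 1 tailing and turnover gene and 2 effectors, beside 9.35% of all genes called in either direction.

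The genes whose pattern was most like that of a member were ranked by Pearson's r over 12 points, the mean log2(CPM + 1) of the 6 transcriptome and 6 polysome groups, which share libraries and are given as a description. For DROSHA they were DNMT1 (r = 0.982), MMAA and SIN3A, for DICER1 KAT6B (0.975), ANKRD31 and IPP, and for TNRC6B SWAP70 (0.985), CEP128 and MELK. For AGO3 they were CTHRC1 (0.974), CTSK and CRYBA4, for AGO4 TMEM170A (0.982), GALM and KDM2A, for AGO1 CITED2 (0.926), FUBP3 and AP3D1 and for AGO2 MAD2L1BP (0.937), MTF1 and AJUBA. For TNRC6A they were NPEPPS (0.922), TMEM236 and GUCY1A1, and for TNRC6C CPNE7 (0.912), CABIN1 and RUBCN. Among the members, DROSHA and TNRC6B were most alike (0.903), followed by DICER1 and TNRC6B (0.819) and AGO1 and DGCR8 (0.804), and AGO4 and DROSHA were least alike (-0.823).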

How the data were processed

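RNA of 120 gradient fractions and 18 whole-cell samples was sequenced after Smart-seq2 amplification. Lysates were cleared by centrifugation before they were loaded on gradients. The deposited table holds expected counts of 16706 gene symbols, which the authors estimated with Salmon from the Ensembl annotation of cattle and did not normalize. The methods name the build ARS-UCD1.2 and the submitters' processing notes UMD 3.1, so no coordinates are given. The version of Salmon is not given in the sources used here.

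Groups came from the sample labels. Of the deposited values 11.7% are not whole, and counts were rounded to whole numbers. No library pair within a group was identical (78 pairs). F8 to F10 and F3 to F5 were summed per gradient. The study tested trends over fractions; pools were used here because fractions of 1 gradient are not independent samples.

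Polysome pools and transcriptomes (30 libraries, 14612 genes after filterByExpr) were fitted in 1 model with the quasi-likelihood test of edgeR 4.0.16 in R 4.3.3, with TMM factors. Polysome and monosome pools (24 libraries, 14873 genes) had a model of their own, without a term for the gradient. P-values were two-sided and Benjamini-Hochberg adjusted over all genes, with calls below 0.05. SE was the absolute log2 fold change over the square root of F. The fits across all genes were first tested on simulated counts with known changes. A group count of 0 was bounded with 3 counts over the group, and intervals were exact, which covers counting error only. Figures used matplotlib and tables Python 3.11.15 with pandas 2.3.3.

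The members and gene lists were chosen with earlier results of these data known. All 10 members are named, with XPO5, TARBP2, PRKRA, LIN28A and LIN28B, and in each pathway list the 2 largest called changes from 2-cell to 8-cell in the transcriptome and the 2 largest called differences between polysomes and transcriptome at the 8-cell stage. Likeness names the 3 genes with the highest r, and that of DGCR8 is not reported here. Alternatives were the likelihood ratio test, DESeq2 1.42.0, DESeq2 size factors, library totals, no filter on low counts, equally weighted fractions, F9 and F10 only, a replicate block, only the libraries compared, a fold above 2 and leaving out each library. Sequences of the genes were not used here.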

Additional observations from a re-analysis of the deposited data

Results flagged for a closer look

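For 5 of the genes the change between consecutive stages differed between polysomes and transcriptome, by an interaction test in the edgeR model. From 2-cell to 8-cell the polysome change minus the transcriptome change was -4.12 for AGO1, -3.07 for DICER1 and 2.83 for DROSHA on the log2 scale. From 8-cell to morula it was 3.57 for AGO1 and 3.12 for DGCR8. From GV to MII it was -7.95 for AGO4, a fitted value that depends on the prior count and is no bound, since the MII pools held 0 counts and the GV transcriptomes at most 3 each. The adjusted p of the AGO4 difference lay between 0.0505 and 0.146 in the repeats that left out 1 of its libraries and lost the call. The AGO1 difference from 2-cell to 8-cell kept its call without each library, and it was lost with a pool of F9 and F10 (-3.33, adjusted p = 0.0614) and when only the libraries compared were fitted (-4.16, adjusted p = 0.0823).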

How the results depend on the processing

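Over all transitions or stages, 8 changes of the 10 genes were called in the transcriptome, 10 in the polysome pools, 18 between polysomes and transcriptome, 6 in the difference of these between stages and 1 between polysomes and monosomes. Fitting only the libraries compared gave 22, 0, 22, 2 and 2. A pool of F9 and F10 lowered the changes of the difference to 2 and the calls against monosomes to 0, and DESeq2 raised the latter to 4. With a replicate block the counts were 7, 10, 16, 2 and 1. Deviations of libraries with the same letter had a median correlation of 0.00689 between transcriptomes (-0.394 to 0.177) and -0.00425 between polysome pools. These correlations compare libraries of different stages, and the 2 pools of a stage deviate as mirror images. They cannot settle whether the letters pair the libraries of a stage, and the block is only an alternative. With library totals in place of TMM factors the median of all genes moved from 0.00 to -0.29 from GV to MII and to 0.46 from MII to 2-cell in the transcriptome. Leaving out 1 library gave 5 to 13, 9 to 16, 15 to 28, 3 to 13 and 0 to 2 calls.

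Some directions turned on 1 pool. Without 8-cell polysome pool A the AGO4 changes turned: from 2-cell to 8-cell in polysomes (8.49, range -1.64 to 10.11), against the transcriptome at the 8-cell stage (0.86, -9.27 to 1.86) and in the difference from 8-cell to morula (-0.11, -1.30 to 10.02). Without morula pool A those of DROSHA turned: from morula to blastocyst in polysomes (-0.54, -1.61 to 1.94) and in the difference (-0.24, -1.32 to 2.23), and against the transcriptome in morulae (0.02, -2.46 to 0.88). Without morula pool B those of AGO3 turned: from morula to blastocyst in polysomes (-1.12, -2.09 to 9.90) and in the difference (-1.61, -2.59 to 9.40), against the transcriptome in morulae (0.48, -10.53 to 1.46) and in the difference from 8-cell to morula (0.68, -10.30 to 2.14). The causes were not tested. The values beyond 8 in size are fits to counts of 0 or 1 and no bounds. Depth limited AGO4 and TNRC6C, with 2 to 27 counts in each transcriptome before the 8-cell stage.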
